A study of Mus musculus with 12 samples.

Results

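The leukocyte adhesion molecules described here were 7 genes. Icam1, Vcam1, Sele, Selp and Madcam1 were taken as the inducible members, and Icam2 and Alcam as a constitutively expressed contrast. The genes were picked by name, from what is known of the proteins, and with earlier results of these data known. They were 7 of the 18194 genes that the array measured through probe sets carrying a single gene symbol. They had 15 probe sets. Icam1, Sele, Madcam1 and Icam2 had 1 each, Vcam1 and Selp had 3 each and Alcam had 5. The study listed a further Vcam1 probe set, which was not among those assigned to Vcam1 here. Where a gene had several, the brightest by its mean on the 12 arrays stood for it and is called its lead probe set.

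The values came from glomeruli, the filtering units of the kidney, which had been isolated intact from male mice of 6 to 8 weeks by perfusion with magnetic beads. Wildtype mice were C57BL/6J. The mutants carried B6.129-Tnfrsf1atm1Mak (Tnfr1-/-, lacking TNF receptor 1), B6.129-Tnfrsf1btm1Mwm (Tnfr2-/-, lacking TNF receptor 2) or both alleles (Tnfr1,2-/-), and their background strain was given as C57Bl/6J. Both alleles are germline deletions, so every cell of the glomerulus lacked the receptor. Each culture held 5000 glomeruli, was kept without serum and was then exposed for 12 hours to murine TNF at 50 ng/ml, in all 4 genotypes alike. Cultures without TNF were not analysed here. A difference between genotypes is therefore a difference between TNF-exposed cultures, and a level in a mutant cannot be set against an unstimulated level. RNA of 3 independent preparations per genotype was hybridized to 12 arrays, 3 per genotype. Whether the preparations came from separate mice is not given in the sources used here, and the p-values measure the spread between these preparations.

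Leukocytes leave the blood in steps. Selectins on activated endothelium (E-selectin, encoded by Sele, and P-selectin, encoded by Selp) bind sugars on passing leukocytes and let them roll. Members of the immunoglobulin superfamily (ICAM-1, VCAM-1 and MAdCAM-1, encoded by Icam1, Vcam1 and Madcam1) then bind leukocyte integrins and hold the cells firmly. TNF is a textbook inducer of ICAM-1, VCAM-1 and E-selectin in endothelial cells, through NF-κB. MAdCAM-1 is best known from the venules of the gut, where it binds the integrin α4β7. ICAM-2 and ALCAM (encoded by Icam2 and Alcam) are present without stimulation, ICAM-2 on resting endothelium and platelets and ALCAM at junctions of several cell types.

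Promoter sequences are shown for members that differed by genotype and for members that did not. RefSeq's mouse genome GRCm38.p6 gave the start of 5 of the 7 members in the table used, and Vcam1 and Icam2 were not in it. Each line holds the 250 bases before the annotated start, written 5′ to 3′ on the strand of the gene. Capitals mark letters that match a κB-type motif, the class of sequence NF-κB binds. The window of Icam1 was chr9:21015690-21015939 (plus strand), that of Madcam1 chr10:79664309-79664558 (plus strand), that of Sele chr1:164047984-164048233 (plus strand) and that of Alcam chr16:52453082-52453331 (minus strand).
Icam1: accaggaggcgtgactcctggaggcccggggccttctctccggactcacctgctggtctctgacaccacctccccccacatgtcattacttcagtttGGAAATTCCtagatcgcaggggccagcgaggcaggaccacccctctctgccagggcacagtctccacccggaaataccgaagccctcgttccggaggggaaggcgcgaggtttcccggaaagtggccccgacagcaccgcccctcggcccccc
Madcam1: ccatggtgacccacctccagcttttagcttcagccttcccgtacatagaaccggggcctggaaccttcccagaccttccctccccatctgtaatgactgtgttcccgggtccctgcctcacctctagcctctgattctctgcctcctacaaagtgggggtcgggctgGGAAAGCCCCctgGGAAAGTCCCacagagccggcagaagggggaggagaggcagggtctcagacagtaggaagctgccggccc
Sele: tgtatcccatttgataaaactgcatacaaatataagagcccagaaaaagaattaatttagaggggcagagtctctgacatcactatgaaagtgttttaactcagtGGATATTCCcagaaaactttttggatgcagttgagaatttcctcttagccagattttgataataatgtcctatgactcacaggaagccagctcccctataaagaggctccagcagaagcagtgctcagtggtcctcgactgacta
Alcam: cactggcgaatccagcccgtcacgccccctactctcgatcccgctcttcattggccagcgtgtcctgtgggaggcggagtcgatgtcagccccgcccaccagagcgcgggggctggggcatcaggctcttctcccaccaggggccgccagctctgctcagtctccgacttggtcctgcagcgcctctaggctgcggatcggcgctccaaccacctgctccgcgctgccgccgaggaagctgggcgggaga

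Motifs were searched on both strands of these windows. Madcam1 held 2 matches of GGGNN followed by TTTCC on the minus strand, which also match the κB consensus and begin 83 and 70 bases before the start. That motif occurred in 1.41% of 32851 RefSeq windows of the same length, and the κB consensus in 7.25%. Icam1 held neither, but the related GGANNTTCC began 153 bases before its start, and Sele held GGANNTTCC 145 bases before its start. GGANNTTCC was added after the sequences had been seen, was present in 3.59% of all windows, and also overlaps the second Madcam1 match. Sele further held an AP-1 motif, TGANTCA (73 bases before the start, in 6.75% of windows), and TATAAA (49 bases before the start, in 12.4%). The Alcam window held none of these motifs. The GC box GGGCGG, which 32.7% of windows held, was in the Alcam window at 159 and 10 bases before the start and in the Icam1 window at 17 bases before it. The Selp window, not printed, held TGANTCA 139 bases before its start and no κB-type motif. The remaining motif searched, GAAANN followed by GAAA, was in none of the 5 windows and in 2.98% of all. These matches describe letters and were not tested for binding.

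A linear model with moderated variances (limma) was fitted to the log2 values of all genes on all 12 arrays, the Benjamini-Hochberg adjustment covered the 18194 genes of a comparison, and a gene passed the test at an adjusted p under 0.05 with a change of at least 1.5-fold. Adjusted p-values are from that fit unless another setting is named. With 3 arrays against 3, an exact permutation test of a single gene cannot give a two-sided p under 0.1. Array medians lay between 5.59 and 5.64, so a log2 value below that range is in the dimmer part of the array.

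In wildtype and Tnfr2-/- glomeruli Icam1 and Vcam1 were abundant, and without TNF receptor 1 both were more than 10-fold lower. Madcam1 fell with them in Tnfr1,2-/- glomeruli and was 5.42-fold lower in Tnfr1-/- glomeruli, where it missed the adjusted threshold. Sele was dim in every genotype and Selp lay near the array medians, and neither passed the test in any comparison, nor did Icam2 and Alcam. Against wildtype, 3 of the 7 members passed as lower in Tnfr1,2-/- glomeruli, beside 0.879% of all genes, and 2 of 7 in Tnfr1-/- glomeruli, beside 0.72%. No member passed as higher in either comparison, beside 0.418% and 0.484% of all genes. In Tnfr2-/- glomeruli 0 of 7 passed by limma, beside 0% of all genes. At an unadjusted p under 0.05 that count was also 0, beside 0.704% of all genes, and it was 0 by SAM, the permutation method of the study. The median log2 change over the members against wildtype was -0.68 for Tnfr1,2-/-, -0.64 for Tnfr1-/- and 0.06 for Tnfr2-/- arrays, beside a median over all genes of -0.00 in the first and second and 0.00 in the last. The 3 comparisons share the wildtype arrays.

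**Figure D1:**
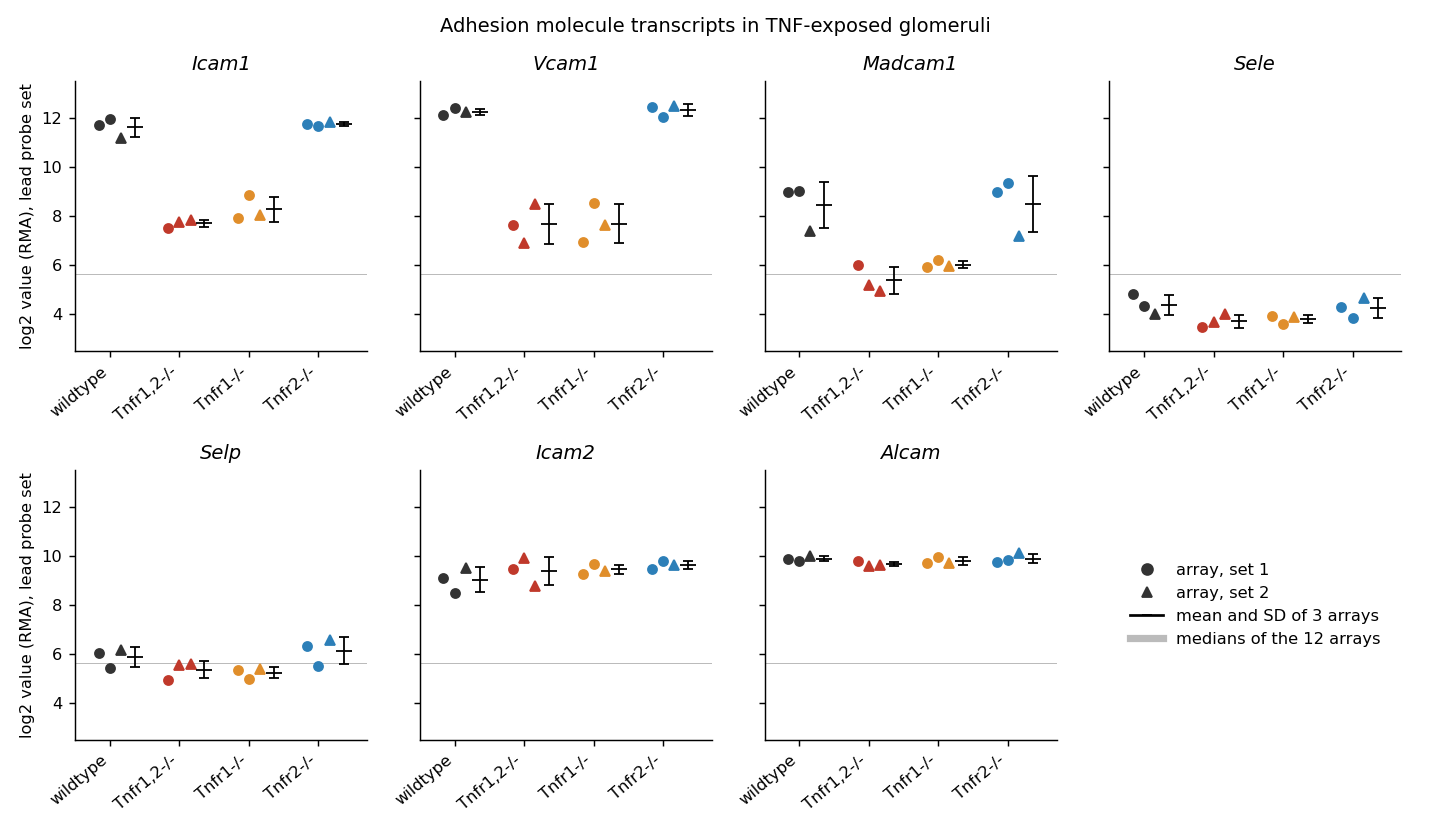
Log2 value of each member's lead probe set (vertical axis) on every array, by genotype (horizontal axis). Each point is 1 array (circles array set 1, triangles array set 2, by the beta-actin control probe sets), the black bars are the mean and SD of the 3 arrays, and the grey line is the range of the array medians (5.59 to 5.64); Icam1, Vcam1 and Madcam1 are high in wildtype and Tnfr2-/- and low in Tnfr1,2-/- and Tnfr1-/-, while Sele lies below the grey line on all 12 arrays.

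Icam1, whose product binds the β2 integrins of leukocytes, read 11.72, 11.95 and 11.20 on the wildtype arrays (log2, replicates 1 to 3) and 11.76, 11.67 and 11.84 on the Tnfr2-/- arrays. It read 7.53, 7.75 and 7.82 on the Tnfr1,2-/- arrays and 7.93, 8.87 and 8.04 on the Tnfr1-/- arrays. The 6 arrays with TNF receptor 1 were all above the 6 arrays without it, and the highest of the latter, Tnfr1-/- replicate 2, was still more than 2 log2 units below the lowest wildtype array. Against wildtype Icam1 fell by 3.92 in Tnfr1,2-/- glomeruli on the log2 scale (SE 0.25, n = 3 per genotype, adjusted p = 1.17e-05, limma), which is 15.1-fold, with a 95% confidence interval of 10.3 to 22.1. In Tnfr1-/- glomeruli it fell by 3.34 (SE 0.25, adjusted p = 4.43e-05, limma), or 10.1-fold, with an interval of 6.93 to 14.8. In Tnfr2-/- glomeruli the difference was 0.14 (95% confidence interval -0.41 to 0.68, adjusted p = 1, limma), and the arrays overlapped those of wildtype. That interval leaves room for a level from 1.33-fold below to 1.61-fold above wildtype.

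Vcam1, the ligand of the integrin α4β1, had the largest difference of the 7 members. Its lead probe set read 12.12, 12.38 and 12.24 in wildtype and 12.43, 12.03 and 12.48 in Tnfr2-/- glomeruli. It read 7.65, 6.89 and 8.50 in Tnfr1,2-/- glomeruli and 6.95, 8.53 and 7.63 in Tnfr1-/- glomeruli. The mutant arrays without TNF receptor 1 spread over more than 1.5 log2 units, against 0.26 in wildtype, and none came within 3 units of a wildtype array. The change against wildtype was -4.57 in Tnfr1,2-/- (SE 0.41, 23.7-fold lower, 95% confidence interval 12.7 to 44.4, adjusted p = 0.000183, limma) and -4.55 in Tnfr1-/- glomeruli (23.4-fold lower, 12.5 to 43.7, adjusted p = 0.000184, limma). In Tnfr2-/- glomeruli it was 0.06 (-0.84 to 0.97, adjusted p = 1, limma). The 3 Vcam1 probe sets, tested among all probe sets of single genes, each passed in both comparisons. Their changes were -4.57, -4.58 and -4.96 in Tnfr1,2-/- and -4.55, -4.51 and -4.51 in Tnfr1-/- glomeruli, although their wildtype means ran from 10.69 to 12.25. The dimmest of them also read lower on replicate 3 (9.78 in wildtype and 9.69 in Tnfr2-/- glomeruli) than on replicates 1 and 2 (10.64 to 11.47), which the lead probe set did not.

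Madcam1 read 8.99, 9.03 and 7.38 in wildtype and 8.97, 9.33 and 7.17 in Tnfr2-/- glomeruli. In Tnfr1,2-/- glomeruli it read 6.00, 5.21 and 4.96, and in Tnfr1-/- glomeruli 5.93, 6.20 and 5.96. Replicate 3 was the low one in both wildtype and Tnfr2-/- glomeruli, and even so it exceeded every array without TNF receptor 1. The level without TNF receptor 1 was close to the array medians, so the fold difference may be understated there. The change was -3.08 in Tnfr1,2-/- glomeruli (SE 0.56, 8.43-fold lower, 95% confidence interval 3.62 to 19.7, adjusted p = 0.018, limma). In Tnfr1-/- glomeruli it was -2.44 (SE 0.56, 5.42-fold lower, 2.32 to 12.6) and did not pass, with an adjusted p of 0.073 (limma), whereas it passed by SAM, which called 3 of the 7 members in this comparison. With the replicate number as a block the same change had an adjusted p of 0.00294. It also passed without wildtype replicate 3 (-2.98, adjusted p = 0.0285) or Tnfr2-/- replicate 3 (adjusted p = 0.019). The call for Tnfr1,2-/- glomeruli rested on several arrays. Leaving out wildtype replicate 1 gave an adjusted p of 0.0934, wildtype replicate 2 gave 0.107, Tnfr1,2-/- replicate 2 gave 0.0876 and Tnfr1,2-/- replicate 3 gave 0.0847, at changes of -2.80 to -2.99. In Tnfr2-/- glomeruli the difference was 0.02 with an interval of -1.20 to 1.25, too wide to separate no difference from one of 2.37-fold.

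The arrays fell into 2 technical sets by the difference between the 3′ and 5′ beta-actin control probe sets, a measure of how complete the labelled RNA was. It was 0.667 to 1 on 7 arrays and 1.82 to 2.3 on 5, namely wildtype, Tnfr1-/- and Tnfr2-/- replicates 3 and Tnfr1,2-/- replicates 2 and 3. Within the first set the Madcam1 change was -3.01 in Tnfr1,2-/- and -2.95 in Tnfr1-/- glomeruli, and within the second it was -2.29 and -1.42. Vcam1 changed by -4.60 and -4.51 in the first set and by -4.55 and -4.61 in the second. Icam1 changed by -4.30 and -3.43 in the first and by -3.41 and -3.16 in the second. Each of the 3 genes was thus lower without TNF receptor 1 in both sets, by a smaller amount in the second for Madcam1 and Icam1. The first set held 2 wildtype, 1 Tnfr1,2-/- and 2 Tnfr1-/- arrays, and the second held 1, 2 and 1. Sizes within a set, and their differences between sets, thus rest on few arrays. The part of the array set in these sizes was not tested. With the array set as a block Madcam1 passed in Tnfr1-/- glomeruli (-2.44, adjusted p = 0.000751, limma).

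**Figure D2:**
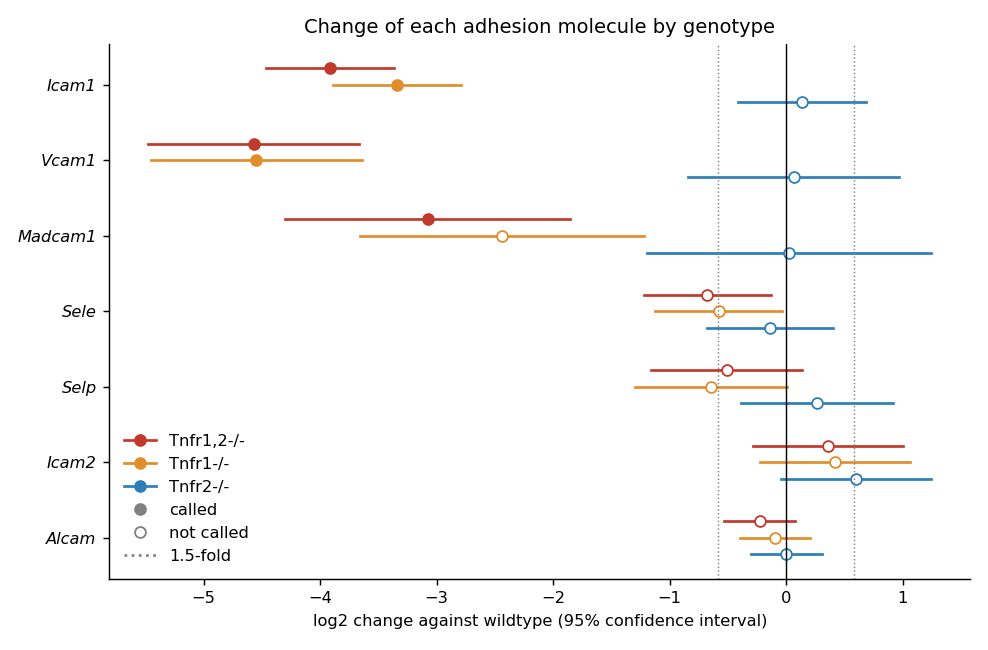
Log2 change of each member's lead probe set against wildtype (horizontal axis) in the 3 mutants, with 95% confidence intervals from the limma fit as bars; filled points passed the test and dotted lines mark 1.5-fold. The intervals of Icam1, Vcam1 and Madcam1 lie below 0 in Tnfr1,2-/- and Tnfr1-/- and across 0 in Tnfr2-/-. They are not adjusted for the number of genes, and the Madcam1 point in Tnfr1-/- did not pass and is open.

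Of the selectins, Sele was the dimmer. It read 4.84, 4.33 and 4.03 in wildtype, 3.48, 3.67 and 4.02 in Tnfr1,2-/-, 3.93, 3.62 and 3.91 in Tnfr1-/- and 4.28, 3.84 and 4.65 in Tnfr2-/- glomeruli. All 12 values lay below the array medians. The lowest wildtype array stood just above the highest Tnfr1,2-/- array, by about 0.01. The difference was -0.68 in Tnfr1,2-/- (SE 0.25, unadjusted p = 0.0194, adjusted p = 0.421, limma) and -0.58 in Tnfr1-/- glomeruli (adjusted p = 0.699, limma). Within the first array set it was -1.11 and -0.81, and within the second, which held 1 wildtype array, -0.18 and -0.12. A transcript this dim is measured with little range below it, so neither a loss of Sele nor its absence could be shown at this signal.

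Selp, which platelets also carry, had a lead probe set near the array medians. It read 6.03, 5.42 and 6.18 in wildtype and 6.34, 5.50 and 6.58 in Tnfr2-/- glomeruli. The values were 4.96, 5.56 and 5.58 in Tnfr1,2-/- and 5.35, 4.98 and 5.37 in Tnfr1-/- glomeruli. The Tnfr1-/- arrays lay just below all wildtype arrays, and the Tnfr1,2-/- arrays overlapped them. The difference was -0.51 in Tnfr1,2-/- (95% confidence interval -1.16 to 0.14, adjusted p = 0.699, limma) and -0.64 in Tnfr1-/- glomeruli (-1.29 to 0.01, adjusted p = 0.799, limma). The further Selp probe sets were dimmer, at means of 4.35 and 2.70 over 12 arrays, and their changes lay between -0.28 and -0.10. In Tnfr2-/- glomeruli Sele differed by -0.14 and Selp by 0.27 (adjusted p = 1 for both, limma).

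Neither gene of the constitutive contrast passed in any comparison. Icam2 read 9.11, 8.47 and 9.49 in wildtype, 9.45, 9.91 and 8.79 in Tnfr1,2-/-, 9.27, 9.65 and 9.40 in Tnfr1-/- and 9.46, 9.79 and 9.62 in Tnfr2-/- glomeruli. The arrays of each mutant overlapped those of wildtype. The differences were 0.36 (-0.29 to 1.004), 0.42 (-0.23 to 1.06) and 0.60 (-0.04 to 1.25) in the order Tnfr1,2-/-, Tnfr1-/- and Tnfr2-/-, so decreases of the size seen for Icam1 lie outside every interval. Within the first array set the Icam2 difference was 0.66 and 0.67 for Tnfr1,2-/- and Tnfr1-/- glomeruli, and within the second -0.14 and -0.09. The second values compare 2 Tnfr1,2-/- arrays and 1 Tnfr1-/- array with 1 wildtype array, too few to read a turn of sign.

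Alcam read 9.87, 9.78 and 10.01 in wildtype, 9.77, 9.59 and 9.61 in Tnfr1,2-/-, 9.70, 9.97 and 9.70 in Tnfr1-/- and 9.75, 9.82 and 10.09 in Tnfr2-/- glomeruli. The 3 Tnfr1,2-/- arrays were below the wildtype arrays by a small margin, and the other mutants overlapped them. The difference was -0.23 (-0.53 to 0.08), -0.10 (-0.40 to 0.21) and 0.00 (-0.30 to 0.30) in the same order, the narrowest intervals of the 7 members. The sign depended on the probe set. Among the 5 Alcam probe sets the change in Tnfr1,2-/- glomeruli ran from -0.23 to 0.44, and none passed in any comparison with wildtype.

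**Figure D3:**
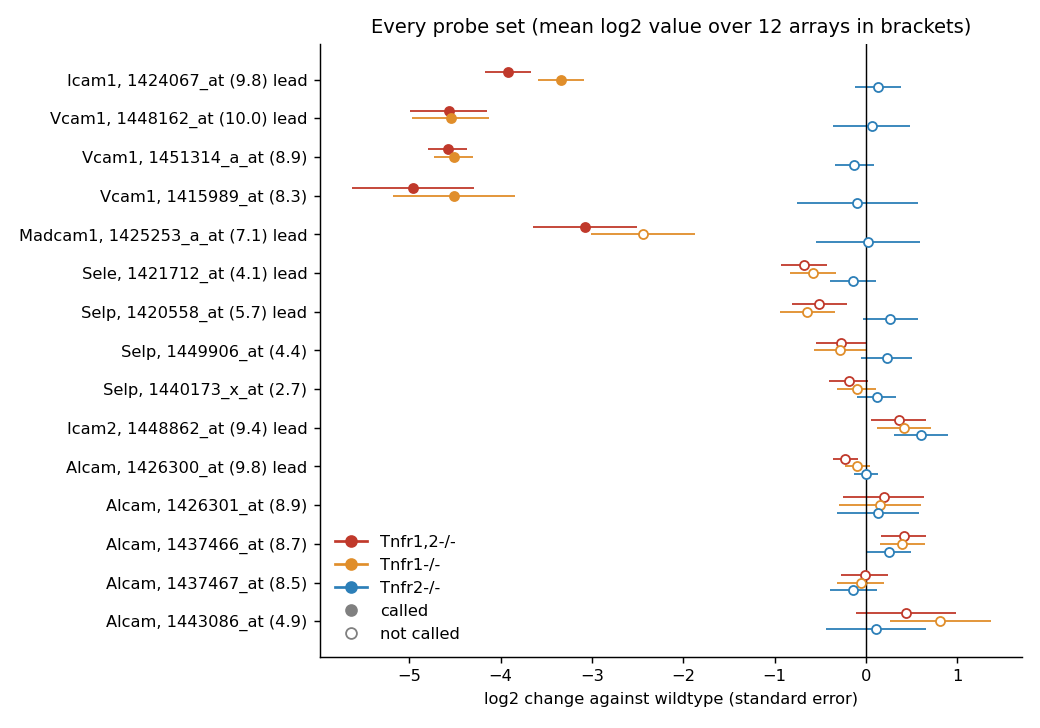
Log2 change against wildtype (horizontal axis, bars are standard errors) of all 15 probe sets of the 7 members, with the mean log2 value over 12 arrays in brackets beside each name. The 3 Vcam1 probe sets lie together between -4.51 and -4.96 in the mutants without TNF receptor 1, and the 5 Alcam probe sets lie on both sides of 0.

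Counted by arrays, 5 of 7 members had all Tnfr1,2-/- arrays below all wildtype arrays (Icam1, Vcam1, Madcam1, Sele and Alcam), beside 5.77% of all genes. In Tnfr1-/- glomeruli it was also 5 of 7 (Selp in place of Alcam), beside 5.51%. The counts include members with differences under 1.5-fold and are read together with the test above. The reverse separation, mutant above wildtype, was seen for no member.

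The mutants were also compared with each other, which asks whether losing TNF receptor 2 mattered once TNF receptor 1 was gone. Between Tnfr1,2-/- and Tnfr1-/- glomeruli 0 of 7 members passed by limma, beside 0.0055% of all genes; 1 had an unadjusted p under 0.05, beside 2.59%, and 0 passed by SAM. That 1 was Icam1, which was lower in Tnfr1,2-/- glomeruli by 0.57 (SE 0.25, unadjusted p = 0.0414, adjusted p = 0.919, limma), with its arrays not overlapping, as for 2.14% of all genes in that direction. Madcam1 differed by -0.64 (-1.86 to 0.58) and Vcam1 by -0.02 (-0.93 to 0.88), with overlapping arrays. The order of the Icam1 means was therefore Tnfr1,2-/-, Tnfr1-/-, wildtype and Tnfr2-/-, of which only the step from Tnfr1-/- to wildtype passed the test. The effect of losing TNF receptor 2 in the absence of TNF receptor 1, minus that in its presence, was -0.71 for Icam1 (95% confidence interval -1.49 to 0.06, adjusted p = 0.998), -0.66 for Madcam1 and -0.09 for Vcam1, and it passed for none of the 18194 genes (limma).

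Against the single mutant lacking TNF receptor 1, Tnfr2-/- glomeruli had 2 of 7 members higher, beside 0.846% of all genes. These were Icam1 (3.48, adjusted p = 3.48e-05) and Vcam1 (4.61, adjusted p = 0.000159). Madcam1 was 2.46 higher (adjusted p = 0.0672) and Selp 0.91 higher (adjusted p = 0.332), both without overlap between arrays, as for 5.68% of all genes in that direction, and neither passing. Against Tnfr1,2-/- glomeruli 3 of 7 were higher, beside 1.04%, namely Icam1 (4.05), Vcam1 (4.63) and Madcam1 (3.10, adjusted p = 0.0166, limma). The SAM counts differed from these, with 3 of 7 members called against Tnfr1-/- and 2 of 7 against Tnfr1,2-/- glomeruli.

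The other genes of the adhesion cascade were counted from a list, of which 43 are reported here. None passed in Tnfr1,2-/- glomeruli by limma, beside 1.3% of all genes (7 at an unadjusted p under 0.05, beside 8.44%, and 0 by SAM). In Tnfr1-/- glomeruli 1 passed, beside 1.2% (9 at an unadjusted p under 0.05, beside 6.35%, and 0 by SAM). In Tnfr2-/- glomeruli none passed, beside 0% (3 at an unadjusted p under 0.05, beside 0.704%, and 0 by SAM). At these backgrounds a list of this size holds few calls. Their median changes were -0.14, -0.04 and 0.09.

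The 24 endothelial junction and surface partners ranged from -0.85 to 0.74 in Tnfr1,2-/- glomeruli, with no call. Emcn, a sialomucin of capillary endothelium, differed by 0.57 (adjusted p = 0.289), Vcl, the cytoskeletal linker vinculin, by 0.74 (adjusted p = 0.371), and Cd47, an integrin-associated surface protein, by -0.46 (adjusted p = 0.453, all limma). Cx3cl1, a membrane-bound chemokine that can itself hold leukocytes, differed by -0.85 (adjusted p = 0.649, limma). Of the 9 measured genes that make or carry selectin ligands, Gcnt1, a branching glycosyltransferase, had the smallest adjusted p (0.80 higher in Tnfr1,2-/- glomeruli, adjusted p = 0.129, limma), and none passed.

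Of the 10 measured leukocyte counter-receptors, Itga4, the α4 integrin subunit that pairs to bind VCAM-1 and MAdCAM-1, was the 1 gene that passed. It read 7.71, 7.32 and 7.27 in wildtype and 7.79, 7.30 and 7.72 in Tnfr2-/- glomeruli. It read 8.76, 9.45 and 8.40 in Tnfr1-/- and 8.45, 8.33 and 8.78 in Tnfr1,2-/- glomeruli. All 6 arrays without TNF receptor 1 were above all 6 with it, the opposite direction to Vcam1 and Madcam1. Itga4 rose by 1.44 in Tnfr1-/- glomeruli (SE 0.25, 2.71-fold, adjusted p = 0.0182, limma), and its difference in Tnfr1,2-/- glomeruli was 1.09 (adjusted p = 0.0793, limma), which passed with the replicate number (adjusted p = 0.0424) or the array set (1.14, 0.0308) as a block. The call in Tnfr1-/- glomeruli did not hold without wildtype replicate 2 (adjusted p = 0.0991) or 3 (0.0801) or without Tnfr1-/- replicate 1 (0.0542), and the mean of all Itga4 probe sets differed by only 0.53 (adjusted p = 0.29). Spn, the sialomucin CD43, differed by 0.84 in Tnfr1,2-/- and 0.93 in Tnfr1-/- glomeruli (adjusted p = 0.201 and 0.124), Itga9 by -0.62 and -0.02 (0.442 and 1) and Itgal, the αL subunit of the ICAM-1 receptor LFA-1, by -0.29 and -0.03 (0.623 and 1, all limma).

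**Figure D4:**
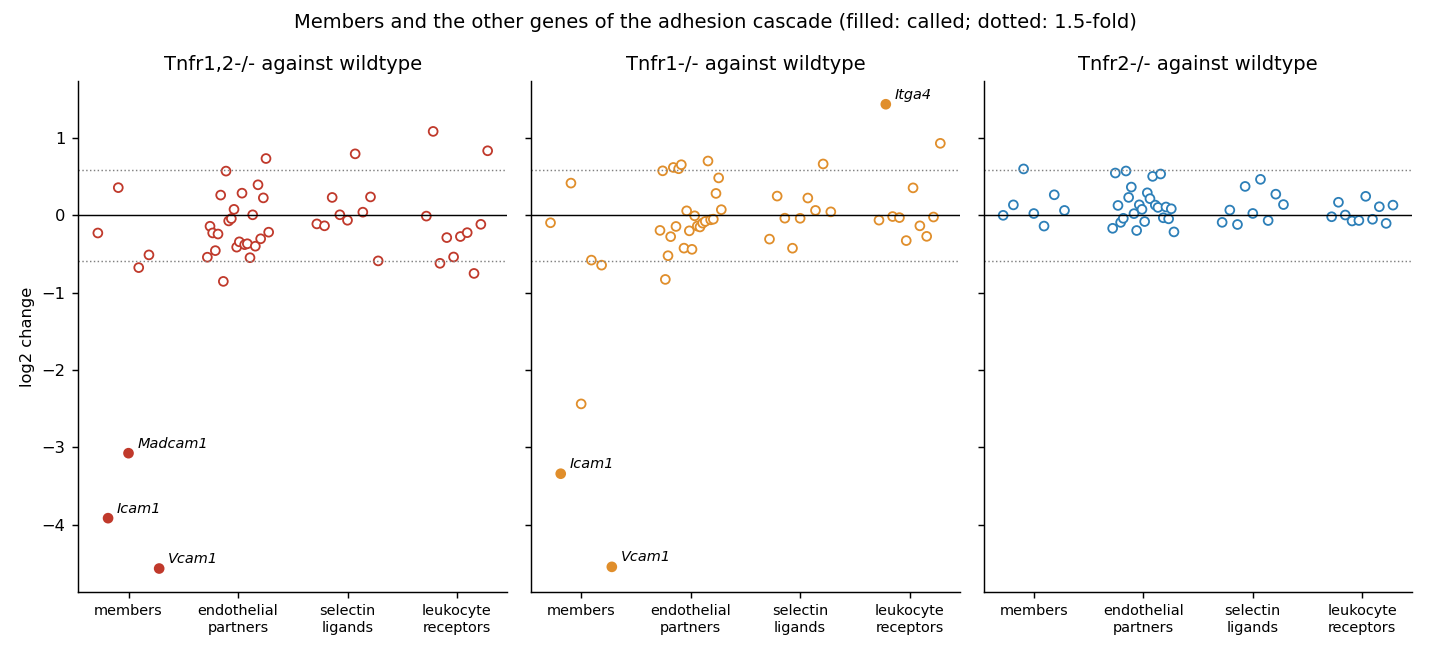
Log2 change against wildtype (vertical axis) of the 7 members and of the 43 other measured cascade genes in 3 roles (horizontal axis), 1 panel per mutant and 1 point per gene; filled points passed the test and dotted lines mark 1.5-fold. Icam1, Vcam1 and Madcam1 lie below -2 in the Tnfr1,2-/- and Tnfr1-/- panels, away from all other points, and no point is filled in the Tnfr2-/- panel.

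These were bulk cultures, in which fewer cells of a type and less RNA per cell cannot be told apart. Cell type markers were set against the array medians by their means over the 12 arrays. All 10 endothelial markers were above, and their mean log2 level was 8.91 to 9.41 in wildtype, 9.16 to 9.89 in Tnfr1,2-/-, 9.46 to 10.04 in Tnfr1-/- and 9.33 to 9.82 in Tnfr2-/- glomeruli. In Tnfr1,2-/- glomeruli 7 of the 10 markers lay above wildtype and 3 below, from -0.40 (Pecam1) to 1.22 (Flt1). In Tnfr1-/- and Tnfr2-/- glomeruli all 10 lay above wildtype. The part of endothelial cells in the members' differences was not tested. At an unadjusted p under 0.05 (limma) 5 of the 10 were higher with both receptors missing, beside 8.44% of all genes in either direction. With only TNF receptor 1 missing 5 were higher, beside 6.35%, and with only TNF receptor 2 missing 4, beside 0.704%. All these counts rest on the same wildtype arrays, whose part was not tested. SAM called none of the 10 against wildtype. Of the 10, only Kdr, the VEGF receptor 2, passed a comparison with wildtype (1.09 in Tnfr1-/- glomeruli, 2.13-fold higher, adjusted p = 0.0414, limma). In that comparison 1.2% of all genes passed. Among the fits with 1 array left out, Kdr kept that call in 3 of 12, which left out wildtype replicate 3 or replicate 1 of the Tnfr1,2-/- or the Tnfr1-/- arrays. By their 12-array means the 5 measured podocyte markers, the 8 of mesangial and smooth muscle cells, the 7 of macrophages and the 4 of platelets were also above the array medians. So were 3 of 7 tubular and 2 of 5 lymphocyte markers, although single markers lay below the medians on some arrays. The podocyte mean log2 level was 10.76 to 11.19 in wildtype, 11.32 to 11.63 in Tnfr1,2-/-, 10.20 to 11.64 in Tnfr1-/- and 10.57 to 11.28 in Tnfr2-/- glomeruli. Among the Tnfr1-/- arrays, replicate 2 had the lowest value of each podocyte marker. It also had the highest Icam1, Vcam1 and Itga4 values of these arrays, and its part was not tested. The mesangial Itga8 rose in Tnfr1-/- glomeruli (1.40, adjusted p = 0.00524, limma), and no podocyte, tubular, macrophage, lymphocyte or platelet marker passed.

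None of the 5 measured neutrophil markers had a 12-array mean above the array medians, although Camp, which encodes the antimicrobial peptide cathelicidin, exceeded them on all 6 wildtype and Tnfr2-/- arrays (5.99 to 7.18). Their mean log2 level was 4.86 to 5.06 in wildtype and 4.92 to 5.20 in Tnfr2-/- glomeruli, against 4.17 to 4.59 in Tnfr1,2-/- and 4.31 to 4.60 in Tnfr1-/- glomeruli, so the mean moved with Icam1, Vcam1 and Madcam1. Its members differed in direction. S100a8 differed by -0.98 and -0.92 in Tnfr1,2-/- and Tnfr1-/- glomeruli (adjusted p = 0.13 and 0.168), S100a9 by 0.36 and 0.17 (0.473 and 1), Csf3r by -0.32 and -0.15 (0.66 and 1) and Mpo by -0.13 and -0.10 (0.905 and 1, all limma). At an unadjusted p under 0.05 (limma) there were 3 of 5 in Tnfr1,2-/-, including S100a9 as higher, and 2 of 5 in Tnfr1-/- glomeruli. Over all genes the shares were 8.44% and 6.35%. Camp was the 1 of 5 that passed, beside 1.3% and 1.2% of all genes, with -1.71 in Tnfr1,2-/- and -1.69 in Tnfr1-/- glomeruli (adjusted p = 0.0297 and 0.0314, limma). Each call was lost in 6 of the 12 fits with 1 array left out, among them all 3 without a wildtype array (adjusted p from 0.0664 to 0.135). The part of neutrophils in the members' differences was not tested.

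The genes with the pattern most like each called member were sought by the root mean square difference between deviations from a gene's own mean over the 12 arrays, in log2 units. For Icam1, whose own deviations had a root mean square of 1.88, the closest genes were Gbp2 (0.408), Cxcl10 (0.409), Cxcl9 (0.443), Hp (0.468) and Gbp6 (0.491). For Vcam1 (2.34) they were Gbp3 (0.395), Cxcl2 (0.417), Cxcl3 (0.425), Cxcl10 (0.514) and Gbp6 (0.519). Chemokines and interferon-inducible guanylate-binding proteins made up all of these except Hp, which encodes the acute-phase protein haptoglobin. For Madcam1 (1.55) the closest were Adamts7 (0.504), Psmb10 (0.536), Tmem132e (0.551), Cxcl16 (0.587) and Slc15a3 (0.6). Icam1 and Vcam1 differed from each other by 0.621 and Icam1 and Madcam1 by 0.794, while Madcam1 and Vcam1 differed by 1.26. These distances describe the 12 arrays and carry no test.

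The members lie on 6 chromosomes, none of which holds Tnfrsf1a (chromosome 6) or Tnfrsf1b (chromosome 4). Icam1 is on chromosome 9, Vcam1 on 3, Sele and Selp on 1, Madcam1 on 10, Icam2 on 11 and Alcam on 16. The genes next to Icam1 include relatives of it, Icam4 and Icam5, which differed by -0.41 and -0.34 in Tnfr1,2-/- glomeruli (adjusted p = 0.766 and 0.671, limma). No gene reported here among the 2 on either side of each member passed in Tnfr1,2-/- or Tnfr1-/- glomeruli.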

How the data were processed

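The authors scanned 12 Affymetrix whole-genome mouse expression arrays, 1 per preparation, and normalized them together with RMAExpress, so that the deposited values are on the log2 scale. They lay between 1.93 and 14.1 and were used as deposited. The number of arrays, 3 per genotype, limits the precision. Of 45101 probe sets, 34958 carried 1 gene symbol, 932 carried several and 9211 none in the platform annotation; the last 2 kinds were left out. A linear model per gene was fitted in R 4.3.3 with limma 3.58.1, with moderated variances and no mean-variance trend (8 residual degrees of freedom before moderation), over 6 comparisons, and were tested on simulated data. SAM was recoded for this work rather than run in its own program, at a q under 5%.

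The members and lists were chosen with earlier results of these data known. The genes named were the members and the 5 genes most like each called member. Cascade genes were named if they passed or had the smallest adjusted p in Tnfr1,2-/- glomeruli (at most 4 per role). Markers were named if they passed. The endothelial markers with the lowest and highest change in Tnfr1,2-/- glomeruli and all measured neutrophil markers were named too. Genes of the adhesion receptor families were named if they passed. Genes next to a member are given for their position (RefSeq gene order, GRCm38.p6). The array sets were seen in the control probe sets. Same-numbered replicates were checked for pairing by the correlation of their deviations from the genotype means, which was above 0.1 in 15 of 18 pairs (-0.229 to 0.727), among them all 3 pairs of wildtype with Tnfr1-/- and of wildtype with Tnfr2-/-; no label ties a number to a shared day or litter. Alternatives were other probe set rules, SAM, the compared arrays alone, blocks, trend, weights, other fold thresholds, other scalings, a filter on dim probe sets and each array left out.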

Additional observations from a re-analysis of the deposited data

How the results depend on the processing

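Each comparison was recomputed under 29 alternatives, 26 of them listed with the design and 3 (each array set alone, and replicate and array set blocks together) added after the values had been seen. The number of members that passed stayed within 1.5 times its value under all others, and changed as follows. With array set 2 alone (5 arrays, 1 genotype with more than 1) it was 1 for Tnfr1,2-/- against wildtype, 0 for Tnfr1-/- against wildtype, 0 for Tnfr2-/- against Tnfr1-/- and 1 for Tnfr2-/- against Tnfr1,2-/-, with fewer arrays by construction. With the replicate block and the array set block together it was 4 for Tnfr2-/- against Tnfr1-/-, and the cause was not tested. With 1 array left out it ran from 2 to 3 for Tnfr1,2-/- and for Tnfr1-/- against wildtype, from 2 to 3 for Tnfr2-/- against either of the other mutants, and was 0 to 0 for Tnfr2-/- against wildtype and for Tnfr1,2-/- against Tnfr1-/-. No called member changed direction. Leaving array set 2 alone aside, Icam1 and Vcam1 passed against wildtype in both mutants lacking TNF receptor 1 under all alternatives. Array set 2 held 1 wildtype array. There Icam1 changed by -3.41 and -3.16 and Vcam1 by -4.55 and -4.61 in Tnfr1,2-/- and Tnfr1-/- glomeruli. The replicate block raised the calls over all genes from 236 to 597 for Tnfr1,2-/- and from 219 to 437 for Tnfr1-/- against wildtype, and of the members it changed only the call of Madcam1 in Tnfr1-/- glomeruli among comparisons with wildtype. Madcam1 passed in Tnfr1-/- glomeruli under 9 of 27 alternatives, at changes of -1.42 to -2.98 over all of them. Sele passed only with array weights (-0.81 in Tnfr1,2-/- glomeruli, adjusted p = 0.0377, limma) and Selp only with both blocks (-0.83, adjusted p = 0.045). The filter on dim probe sets removed Sele. Signal near or below the array medians limits what can be said of Sele and of Madcam1 without TNF receptor 1.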

Other observations

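Adhesion receptors were also counted by gene family, with families defined by gene symbol: integrins, classical and desmosomal cadherins, protocadherins, claudins, CEA-related proteins, syndecans, nectins and Siglecs. The families include genes of the cascade and marker lists above, so these counts overlap with the earlier ones. Of 144 measured genes in these 9 families, 1 was lower in Tnfr1,2-/- glomeruli by limma, beside 0.879% of all genes. At an unadjusted p under 0.05 there were 20 of either direction, beside 8.44%. In Tnfr1-/- glomeruli 2 were lower and 2 higher, beside 0.72% and 0.484% (15 at an unadjusted p under 0.05, beside 6.35%). The 2 higher were Itga4 and Itga8, both already given above. In Tnfr2-/- glomeruli 0 passed, beside 0% (3 at an unadjusted p under 0.05, beside 0.704%, and 0 by SAM). Itga1, the α1 subunit of a collagen-binding integrin, lay between 9.55 and 9.71 in wildtype, between 8.06 and 8.97 in Tnfr1,2-/- and between 8.00 and 8.80 in Tnfr1-/- glomeruli (log2 values), without overlap. It fell by 1.28 (2.43-fold, adjusted p = 0.0369, limma) and 1.27 (2.41-fold, adjusted p = 0.0424). Its calls were near the threshold, and among the 12 fits with 1 array left out they were kept in 3 for Tnfr1,2-/- and in 3 for Tnfr1-/- glomeruli.

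Itga8, the mesangial integrin subunit that binds nephronectin, rose by 1.40 in Tnfr1-/- glomeruli (2.65-fold, adjusted p = 0.00524, limma), a call kept in all 12 fits with 1 array left out but lost with the mean of its probe sets (1.53, adjusted p = 0.137). It differed by 0.94 in Tnfr1,2-/- glomeruli (adjusted p = 0.0562), which passed with the array set (0.92, adjusted p = 0.038) or the replicate number (0.0333) as a block. Pcdh7, a protocadherin, fell by 1.15 in Tnfr1-/- glomeruli (2.22-fold, adjusted p = 0.0372, limma) and differed by -1.01 in Tnfr1,2-/- glomeruli (adjusted p = 0.0705), which passed with the array set (-0.95, adjusted p = 0.0486) or the replicate number (0.0379) as a block. Its call was kept in 4 of the 12 fits with 1 array left out. Pcdh7 lay between 6.10 and 6.37 in wildtype and between 4.83 and 5.27 in Tnfr1-/- glomeruli (log2 values). The latter values were below the array medians (5.59 to 5.64), in the dimmer part of the array. These genes were named after their values had been seen.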
